A study of Homo sapiens with 12 samples.

Results

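The SLC16 family of monocarboxylate transporters and their chaperone basigin were followed through 12 RNA sequencing libraries of T84 cells, a human colon carcinoma line much used to study the gut epithelium. The set held 10 genes of the 48162 in the count table, chosen by name: SLC16A1, SLC16A3, SLC16A4, SLC16A5, SLC16A6, SLC16A7, SLC16A9, SLC16A13, SLC16A14 and BSG. All 10 were found through their Ensembl identifiers. Cells were confluent in all 4 groups of 3 libraries and carried no genetic change or further agent in the labels. Their growth medium had been exchanged for Hanks buffered saline, of pH 6.0 for 6 h, pH 7.4 for 6 h, pH 6.0 for 3 h or pH 7.4 for 3 h. There was no group kept in growth medium, so all groups share the change to saline. Whether replicate libraries stem from separate cultures is not stated in the labels. The p-values therefore set group differences only against the spread of replicate libraries, and that spread may be technical.

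Monocarboxylate transporters carry small organic acids across membranes, and the best known members move lactate, pyruvate or ketone bodies together with a proton, in the direction set by the gradients of both. Basigin, a membrane glycoprotein of the immunoglobulin superfamily, is the partner that SLC16A1 and SLC16A3 need to reach the plasma membrane. In the colon, SLC16A1 is known for the uptake of butyrate made by bacteria, and SLC16A3 is known in many cells for lactate export during glycolysis. Other members carry other substrates, and for several the substrate is not settled.

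Each library gave between 13912532 and 24331032 counts. All 10 epithelial markers examined, EPCAM and CDX2 among them, were detected, and their summed level was 7960 to 10800 CPM (counts scaled to library size) in every library, with 6 h sums of 9930 to 10800 at pH 6.0, against 7960 to 8230 at pH 7.4. KRT8 carried most of that gap (4515 CPM at pH 6.0 and 2916 CPM at pH 7.4). CDH1 (737 CPM at pH 6.0 and 864 CPM at pH 7.4), KRT20 (385 and 453 CPM, same order) and GUCY2C (225 and 255 CPM) lay the other way. The summed level of 5 leukocyte markers was 2.02 to 3.06 CPM, that of 4 endothelial markers 0.381 to 1.28 CPM, and that of 5 fibroblast markers 0.290 to 2.20 CPM in 11 libraries. The exception was pH 7.4 6 h library 2, with 23.6 CPM of fibroblast markers, where COL1A1 had 260 counts against at most 26 elsewhere. Results that move without that library are given beside it below.

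Basigin was by far the most abundant of the 10 mRNAs per unit length. Averaged over the 12 libraries and expressed as the deposited RPKM (reads scaled to gene length and library size), BSG stood at 336.2, above 99.3% of the 15630 genes tested. SLC16A1 followed at 35.4 RPKM, SLC16A5 at 19.0, SLC16A3 at 9.96, SLC16A13 at 8.30, SLC16A4 at 2.91, SLC16A9 at 1.93 and SLC16A14 at 0.635 RPKM. SLC16A1 lay between 26.6 and 44.2 RPKM and SLC16A5 between 16.9 and 20.8 RPKM, so neither overlapped a neighbour in this order. SLC16A3 (3.92 to 15.96 RPKM) and SLC16A13 (4.71 to 13.2 RPKM) overlapped and changed places: SLC16A3 was the higher of the pair in every library at pH 6.0 and the lower in every library at pH 7.4. SLC16A4 (2.19 to 3.79 RPKM) and SLC16A9 (0.867 to 3.12 RPKM) also overlapped. SLC16A6, whose zebrafish counterpart exports ketone bodies from liver, and SLC16A7, a high-affinity pyruvate and lactate carrier, were at the limit of detection.

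SLC16A6 had 18 counts over all 12 libraries and SLC16A7 had 6, each with 7 libraries at 0. SLC16A6 reached 6 counts in a library and SLC16A7 reached 2. The limit that a count of 0 allows is 3 counts, or 0.123 to 0.216 CPM when scaled by total counts alone. These limits cover counting error only. Neither gene passed the filter on low counts, and no fold change is given for them. The other 8 were tested, and SLC16A14 passed with as few as 1 count in pH 7.4 6 h library 2.

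**Figure D1:**
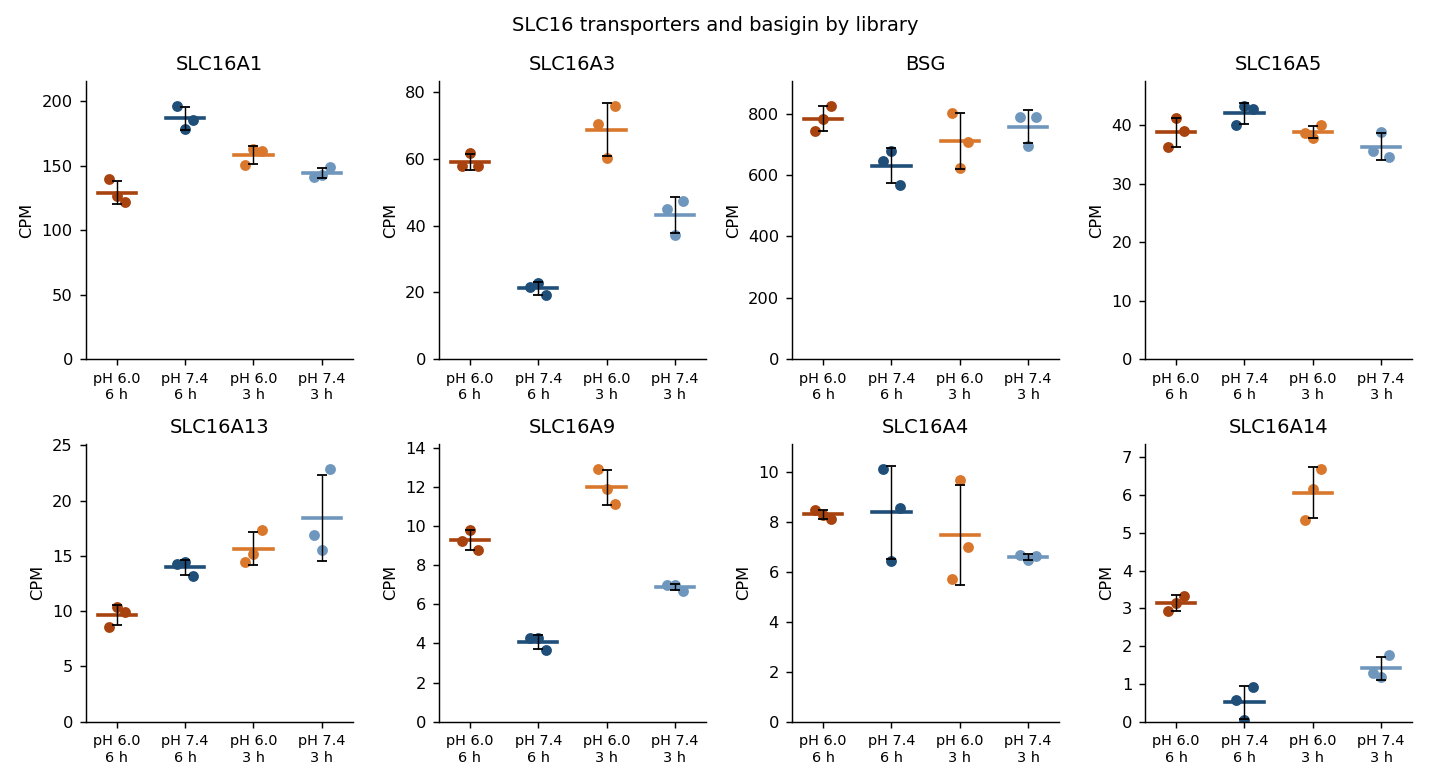
CPM of the 8 tested genes in each library (points), with the group mean (coloured line) and SD (black bar, n = 3), on linear axes that start at 0; groups run from pH 6.0 6 h to pH 7.4 3 h. SLC16A3, SLC16A9 and SLC16A14 are higher at pH 6.0 than at pH 7.4 at both times with no overlap, while SLC16A1 is lowest at pH 6.0 6 h and highest at pH 7.4 6 h.

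At pH 6.0 compared with pH 7.4, SLC16A3, SLC16A9 and SLC16A14 rose at both times, and BSG rose at 6 h. SLC16A1 and SLC16A13 fell at 6 h. SLC16A4 and SLC16A5 did not pass the test at either time. At 6 h this made 4 of the 8 tested genes higher, where 21.9% of all genes tested were called higher, and 2 lower, where 25.1% were called lower (edgeR's quasi-likelihood test, Benjamini-Hochberg adjusted p under 0.05 over 15630 genes). In either direction 6 h had 47% of all genes called, so a count of called genes says little about any set at that time. At 3 h, 3 of the 8 were higher, against 9.53% of all genes, and 0 were lower, against 9.26%. The 3 h background rests on single libraries: 18.8% of all genes (2937) were called in either direction, and 1661 without pH 7.4 3 h library 1, 1649 without pH 6.0 3 h library 2 or 1648 without pH 6.0 3 h library 3. Libraries of the compared groups did not overlap for 4 members higher and 2 lower at 6 h, where 26.9% and 29.7% of all genes were so separated (56.6% in either direction). At 3 h they did not overlap for 4 higher and 0 lower, the fourth being SLC16A1, against 16.7% and 16.3% of all genes (33% in either direction). The median log2 fold change of the 8 was 0.15 at 6 h and 0.15 at 3 h, with a median over all genes within 0.01 of 0.

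**Figure D2:**
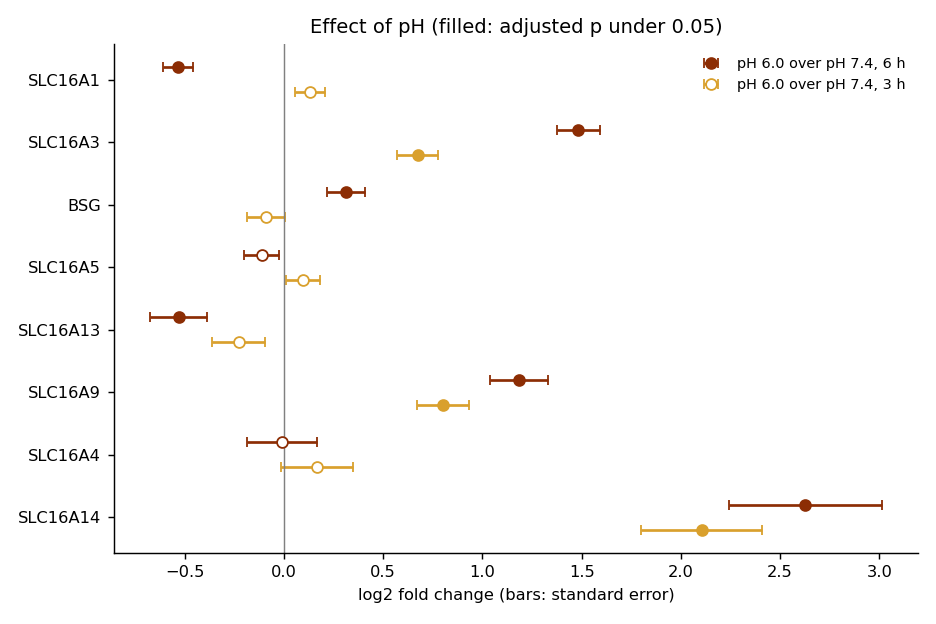
Log2 fold change of pH 6.0 over pH 7.4 at 6 h (dark, upper of each pair) and 3 h (light) for the 8 tested genes, with the standard error as bars; filled points have an adjusted p under 0.05. SLC16A3, SLC16A9 and SLC16A14 lie right of 0 at both times, and SLC16A1 lies left of 0 at 6 h (-0.53) and right of it at 3 h (0.13, not called).

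SLC16A3 (MCT4; ENSG00000141526, chromosome 17), the exporter of lactate in glycolytic cells, was among the members with the clearest response. At 6 h it had 57.8, 61.9 and 57.9 CPM in the pH 6.0 libraries, against 21.5, 23.0 and 19.1 CPM in the pH 7.4 libraries. At 3 h it had 70.4, 60.2 and 75.8 CPM at pH 6.0, against 45.2, 37.2 and 47.3 CPM at pH 7.4. The libraries did not overlap at either time, and the lowest value at pH 6.0 at 6 h was above the highest value at pH 7.4 at 3 h. The log2 fold change was 1.48 ± 0.11 (SE, 3 libraries per group throughout) at 6 h, a 2.79-fold difference with adjusted p = 2.54e-10. At 3 h it was 0.67 ± 0.10, or 1.59-fold, with adjusted p = 8.57e-05. The pH effect at 6 h exceeded that at 3 h by 0.81 ± 0.15 on the log2 scale (adjusted p = 0.000415). These calls held under all alternatives, with log2 values of 1.41 to 1.63 at 6 h and 0.58 to 0.76 at 3 h.

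The widening gap of SLC16A3 came with a lower level at pH 7.4 at 6 h. Relative to 3 h, SLC16A3 at 6 h averaged 21.2 ± 1.96 CPM against 43.2 ± 5.34 CPM at pH 7.4 (SD, n = 3 each), and it fell there by 1.03 ± 0.11 on the log2 scale (adjusted p = 3.59e-07). At pH 6.0 it averaged 59.2 ± 2.32 CPM at 6 h and 68.8 ± 7.91 CPM at 3 h, which overlapped and did not pass the test (log2 -0.22 ± 0.10, adjusted p = 0.139). With total counts as the only scaling that last difference was called (-0.30, adjusted p = 0.0320). CPM are relative to all mRNA counted in a library, so they show SLC16A3 only in relation to other mRNAs. Cell number and the amount of RNA per cell cannot be read from these values. About 6.04% of the exonic bases of SLC16A3 in the GENCODE 29 annotation are shared with other genes, mainly CSNK1D on the opposite strand, and whether the counting used strand is not given in the sources used here.

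A promoter window of SLC16A3 is shown because it holds the short letters ACGTG. They are a form of the core that hypoxia-inducible factors are known to bind, the other form being GCGTG. SLC16A3 is also a textbook target of those factors. RefSeq (GRCh38.p14) gives 5 start sites for the gene, each with a window of 250 bases before to 50 after the start. The window of the second start, chr17:82228792-82229091 on the plus strand, is printed 5′ to 3′ with the matches in capitals.
SLC16A3 start 2: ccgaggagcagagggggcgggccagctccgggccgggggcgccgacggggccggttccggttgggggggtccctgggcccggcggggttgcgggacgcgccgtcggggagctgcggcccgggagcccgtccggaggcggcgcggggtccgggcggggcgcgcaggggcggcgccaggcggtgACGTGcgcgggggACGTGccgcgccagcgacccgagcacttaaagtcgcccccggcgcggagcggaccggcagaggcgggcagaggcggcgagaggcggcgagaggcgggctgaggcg
The 2 matches begin at positions -68 and -55 from the start site, both on the strand of the gene. None of the windows of the other 4 starts holds ACGTG. The other form, GCGTG, is in the window of start 4 (-216, -89 and -22) and that of start 5 (-165). Of all 35116 promoter windows in RefSeq, 21.4% hold ACGTG and 36.5% hold GCGTG on either strand, so a match by itself is common.

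SLC16A1 (MCT1; ENSG00000155380, chromosome 1), the widely expressed importer and exporter of lactate and butyrate, went the other way from SLC16A3 at 6 h. It had 139, 126 and 122 CPM at pH 6.0, against 196, 179 and 185.5 CPM at pH 7.4. The 3 h libraries had 150.2, 163 and 161 CPM at pH 6.0, against 141, 143 and 149 CPM at pH 7.4. Every pH 6.0 library was below every pH 7.4 library at 6 h, and at 3 h every pH 6.0 library was above, by a narrow margin. SLC16A1 fell at 6 h by 0.53 ± 0.08 on the log2 scale (adjusted p = 5.40e-06), to 129 ± 9.08 CPM at pH 6.0 against 187 ± 8.77 CPM at pH 7.4 (SD, n = 3 each). The 3 h difference did not pass the test (log2 0.13 ± 0.08, adjusted p = 0.230). The pH effect at 6 h minus that at 3 h was -0.66 ± 0.11 (adjusted p = 0.000125). The fall at 6 h and the difference between times were called in all alternatives, with -0.58 to -0.42 for the fall and -0.69 to -0.51 for the difference.

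With time, SLC16A1 moved in opposite directions at the 2 pH values. At pH 6.0 it fell, with 129 ± 9.08 CPM at 6 h and 158 ± 6.90 CPM at 3 h (log2 -0.29 ± 0.08, adjusted p = 0.00858). At pH 7.4 it rose, with 187 ± 8.77 CPM at 6 h and 144 ± 4.11 CPM at 3 h (log2 0.37 ± 0.08, adjusted p = 0.000735). The libraries of the compared groups did not overlap in either case. The fall at pH 6.0 rests partly on pH 6.0 6 h library 3, without which it was -0.24 with adjusted p = 0.0641. SLC16A1 shares 3.29% of its exonic bases with the antisense gene SLC16A1-AS1, and a named pseudogene copy, SLC16A1P1, is annotated, to which reads could be lost.

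Basigin (BSG; ENSG00000172270, chromosome 19) changed little relative to its level. At 6 h it had 742, 782 and 824 CPM at pH 6.0, against 645, 679 and 568 CPM at pH 7.4. The 3 h levels were 803, 623 and 707 CPM at pH 6.0, against 790.4, 694 and 789 CPM at pH 7.4. The groups were separate at 6 h and overlapped at 3 h. BSG rose at 6 h by 0.31 ± 0.09 on the log2 scale, or 1.24-fold (adjusted p = 0.00957), and at 3 h the difference was -0.09 ± 0.09 (adjusted p = 0.535). Without pH 7.4 6 h library 3, the lowest, the 6 h difference was 0.24 with adjusted p = 0.0684.

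The difference between the pH effects on BSG, 0.40 ± 0.13 (adjusted p = 0.0269), and its fall with time at pH 7.4, by 0.27 ± 0.09 (adjusted p = 0.0359), were the least stable calls of the well-expressed members. Neither passed when the fit was corrected for gene length, at 0.28 (adjusted p = 0.0697) and -0.13 (adjusted p = 0.244). The difference between times was also lost without pH 6.0 3 h library 2 or 3, pH 7.4 3 h library 1, pH 6.0 6 h library 3 or pH 7.4 6 h library 3 (0.32 to 0.40, adjusted p 0.0536 to 0.0845). The fall with time was lost without pH 6.0 3 h library 3, pH 7.4 3 h library 1 or 3, or pH 7.4 6 h library 1 or 3 (-0.28 to -0.20, adjusted p 0.0513 to 0.187). BSG did not pass the test over time at pH 6.0 (0.14 ± 0.09, adjusted p = 0.329). About 3.69% of its exonic bases are shared with AC009005.1 on the opposite strand.

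The second BSG start is shown for comparison with SLC16A3, because of the motifs in its window. These are CACGTG, the E-box bound by MYC and related factors, which itself contains ACGTG, and 4 copies of GCGTG. Besides being a form of the hypoxia-inducible factor core, GCGTG gives the core letters of the aryl hydrocarbon receptor element. The window lies at chr19:572346-572645 on the plus strand.
BSG start 2: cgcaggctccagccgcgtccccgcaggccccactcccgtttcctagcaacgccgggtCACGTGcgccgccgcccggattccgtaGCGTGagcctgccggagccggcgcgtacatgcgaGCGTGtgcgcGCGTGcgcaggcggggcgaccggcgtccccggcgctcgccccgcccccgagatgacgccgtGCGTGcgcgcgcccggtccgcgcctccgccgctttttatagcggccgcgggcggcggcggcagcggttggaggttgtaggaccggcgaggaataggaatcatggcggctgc
CACGTG begins at position -193, and GCGTG at -166, -132, -122 and -61. Of all promoter windows 7.26% hold CACGTG and 36.5% hold GCGTG on either strand. The window of the first BSG start holds none of the 5 motifs searched.

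Set against each other per unit length, SLC16A3 and SLC16A1 gave a ratio that was higher at pH 6.0 at both times. At 6 h the ratio of SLC16A3 to SLC16A1 RPKM was 0.376, 0.444 and 0.430 at pH 6.0, against 0.0993, 0.116 and 0.0931 at pH 7.4. The 3 h ratio was 0.424, 0.335 and 0.426 at pH 6.0, against 0.290, 0.236 and 0.288 at pH 7.4. The libraries did not overlap at either time. The exact two-sided permutation p was 0.1 for both, the smallest that 3 libraries against 3 can give (0.133 adjusted over the 20 ratio and sum tests made). Over time at pH 7.4 the ratio was 0.103 ± 0.0121 at 6 h and 0.271 ± 0.0304 at 3 h, and at pH 6.0 it was 0.417 ± 0.0360 at 6 h and 0.395 ± 0.0520 at 3 h (SD, n = 3 each). The exact permutation p was 0.1 at pH 7.4 and 0.5 at pH 6.0.

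The summed level of the 9 SLC16 genes was 69.3 ± 2.04 RPKM at pH 6.0 and 78.9 ± 1.78 RPKM at pH 7.4 at 6 h, and 86.9 ± 3.57 RPKM at pH 6.0 and 77.6 ± 1.41 RPKM at pH 7.4 at 3 h. The pH 6.0 sum was thus the lower at 6 h and the higher at 3 h, each with an exact permutation p of 0.1. SLC16A1 made up 40.8% ± 2.71 of the sum at pH 6.0 and 53.4% ± 1.33 at pH 7.4 at 6 h (exact permutation p = 0.1). At 3 h its shares were 42.3% ± 1.34 at pH 6.0 and 44.2% ± 0.738 at pH 7.4, with an exact permutation p of 0.2. SLC16A3 made up 16.9% ± 0.407 at pH 6.0 and 5.49% ± 0.537 at pH 7.4 at 6 h, and 16.7% ± 1.71 at pH 6.0 and 11.96% ± 1.18 at pH 7.4 at 3 h. BSG stood at 8.77 ± 0.873 times the summed SLC16A1 and SLC16A3 level at pH 6.0 and 6.26 ± 0.630 times at pH 7.4 at 6 h. At 3 h it stood at 6.60 ± 0.949 times at pH 6.0 and 8.43 ± 0.415 times at pH 7.4, the opposite order (exact permutation p = 0.1 at each time).

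**Figure D3:**
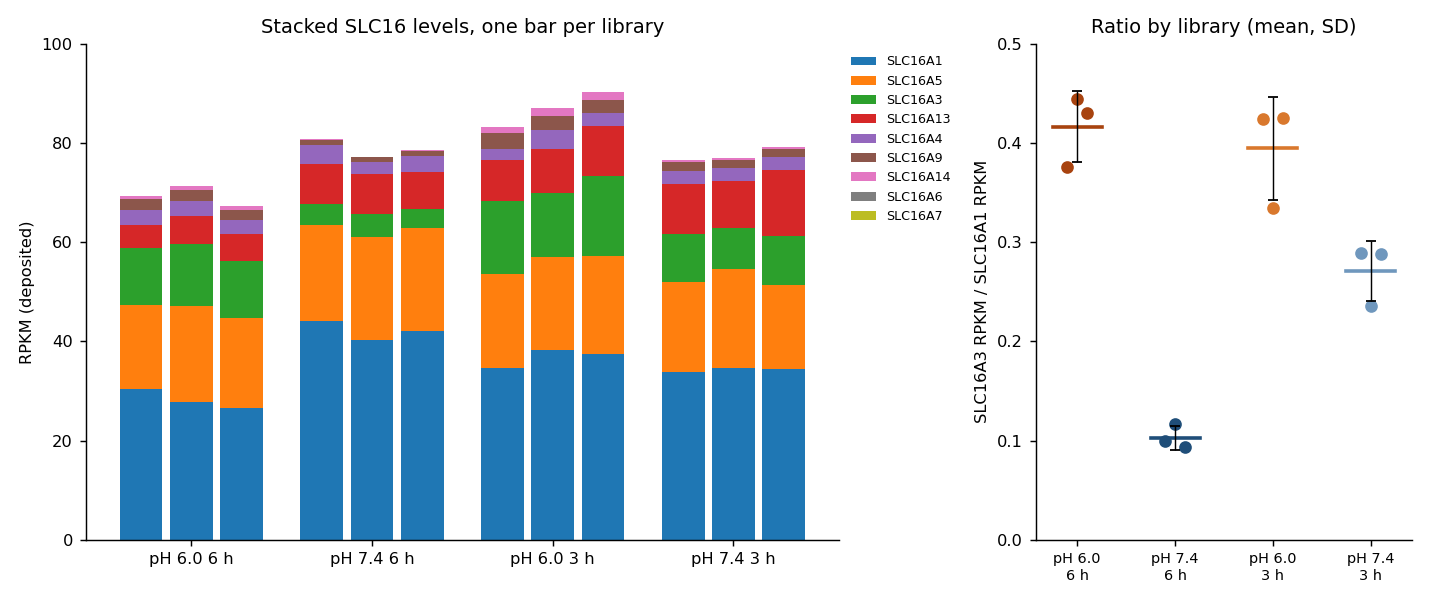
Left, the deposited RPKM of the 9 SLC16 genes stacked in 1 bar per library; SLC16A6 and SLC16A7 are too low to be seen. Right, the ratio of SLC16A3 to SLC16A1 RPKM per library (points) with the group mean and SD (n = 3), which is lowest at pH 7.4 6 h (0.103) and lies between 0.335 and 0.444 in every pH 6.0 library.

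SLC16A14 (MCT14; ENSG00000163053, chromosome 2), a member without a settled substrate, had the largest fold change of the 8 at both times and the lowest level. At 6 h it had 43, 62 and 49 counts (2.92, 3.13 and 3.34 CPM) at pH 6.0, against 10, 1 and 15 counts (0.581, 0.0537 and 0.911 CPM) at pH 7.4. Its 3 h libraries held 98, 88 and 107 counts (5.34, 6.16 and 6.69 CPM) at pH 6.0, against 33, 24 and 30 counts (1.30, 1.20 and 1.76 CPM) at pH 7.4. Every pH 6.0 library was above every pH 7.4 library, also across times. SLC16A14 rose by 2.63 ± 0.39 on the log2 scale at 6 h (adjusted p = 9.16e-06) and by 2.11 ± 0.30 at 3 h, or 4.30-fold (adjusted p = 4.82e-05). The 6 h value depends on single libraries: it was 2.07 without pH 7.4 6 h library 2, the one with 1 count and with the fibroblast markers, and 3.31 without pH 7.4 6 h library 3, and it was called either way. The pH effects at the 2 times were not shown to differ (0.52 ± 0.51, adjusted p = 0.479).

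With time SLC16A14 fell at both pH values. At pH 7.4 it fell by 1.47 ± 0.42 on the log2 scale (adjusted p = 0.0101), with -0.90 without pH 7.4 6 h library 2 (adjusted p = 0.0484) and -2.16 without library 3 of that group (adjusted p = 0.00227). At pH 6.0 it averaged 3.13 ± 0.211 CPM at 6 h and 6.064 ± 0.680 CPM at 3 h, and fell by 0.95 ± 0.28 (adjusted p = 0.0209). That call was lost without pH 6.0 3 h library 2 or 3, or any 1 of the pH 6.0 6 h libraries (-0.98 to -0.87, adjusted p 0.0533 to 0.0900). A pseudogene named SLC16A14P1 is annotated, so counts this low could include or lose a few of its reads.

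The only RefSeq window of SLC16A14, chr2:230068875-230069174 on the minus strand, is shown as the contrast to the SLC16A3 window above. It holds none of the 5 motifs searched on both strands, which were ACGTG and CACGTG with GCGTG, the CREB element TGACGTCA and the AP-1 element TGACTCA.
SLC16A14 start 1: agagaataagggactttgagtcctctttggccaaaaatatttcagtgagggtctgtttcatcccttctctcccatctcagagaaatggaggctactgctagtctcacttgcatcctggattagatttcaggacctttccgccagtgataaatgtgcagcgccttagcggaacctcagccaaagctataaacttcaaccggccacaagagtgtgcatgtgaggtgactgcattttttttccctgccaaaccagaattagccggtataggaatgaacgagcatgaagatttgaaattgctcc
It has 45.7% G and C, against 82.7% in the SLC16A3 window above. The windows of SLC16A3 starts 1 and 3, BSG start 1, SLC16A4 and SLC16A7 hold none of these motifs either.

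SLC16A9 (MCT9; ENSG00000165449, chromosome 10), a carnitine transporter, followed SLC16A3 closely. At 6 h it had 9.23, 9.80 and 8.79 CPM at pH 6.0, against 4.30, 4.29 and 3.65 CPM at pH 7.4. Levels at 3 h were 12.9, 11.9 and 11.1 CPM at pH 6.0, against 6.995, 6.97 and 6.69 CPM at pH 7.4. The groups did not overlap, and as for SLC16A3 every pH 6.0 library at 6 h was above every pH 7.4 library at 3 h. SLC16A9 rose by 1.18 ± 0.14 on the log2 scale at 6 h, or 2.27-fold (adjusted p = 6.87e-07), and by 0.80 ± 0.13 at 3 h, or 1.74-fold (adjusted p = 0.000207). Its 2 pH effects were not shown to differ (0.38 ± 0.20, adjusted p = 0.147).

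Over time SLC16A9 fell at pH 7.4 by 0.75 ± 0.15 (adjusted p = 0.000454). At pH 6.0 the fall of 0.37 ± 0.13 only just passed (adjusted p = 0.04999). It missed the threshold under 17 of 20 alternatives, among them the omission of any 1 of the 12 libraries (-0.42 to -0.28, adjusted p 0.0547 to 0.1999). The second SLC16A9 start, chr10:59710030-59710329 on the minus strand, is shown because it is the only other window of these genes with an E-box.
SLC16A9 start 2: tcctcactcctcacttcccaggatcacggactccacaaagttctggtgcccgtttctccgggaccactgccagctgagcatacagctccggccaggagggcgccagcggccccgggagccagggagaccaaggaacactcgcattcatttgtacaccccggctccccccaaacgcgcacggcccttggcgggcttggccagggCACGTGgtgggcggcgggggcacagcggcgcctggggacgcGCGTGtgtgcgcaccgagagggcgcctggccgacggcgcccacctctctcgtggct
CACGTG begins at position -47 and GCGTG at -6. Neither TGACGTCA, present in 1.85% of all windows, nor TGACTCA, present in 4.95%, was found in any of the 13 windows of the 6 genes with an entry, which also include SLC16A4 and SLC16A7.

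SLC16A13 (MCT13; ENSG00000174327, chromosome 17), a lesser known member reported to carry lactate, was lower at pH 6.0 at 6 h. It had 8.62, 10.4 and 9.95 CPM at pH 6.0, against 14.3, 14.4 and 13.2 CPM at pH 7.4. The 3 h values were 14.4, 15.2 and 17.3 CPM at pH 6.0, against 16.9, 15.5 and 22.9 CPM at pH 7.4. The groups were separate at 6 h and overlapped at 3 h. SLC16A13 fell by 0.53 ± 0.14 on the log2 scale at 6 h (adjusted p = 0.00406), and the 3 h difference of -0.23 ± 0.13 did not pass (adjusted p = 0.243). The difference between the times was not called (-0.30 ± 0.20, adjusted p = 0.267).

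SLC16A13 also fell with time at pH 6.0, by 0.69 ± 0.14 (adjusted p = 0.00137). Its fall at pH 7.4, by 0.39 ± 0.13 (adjusted p = 0.0293), was lost with a correction for gene length (-0.24, adjusted p = 0.181). It was also lost without pH 7.4 3 h library 3, the highest of that group (-0.23, adjusted p = 0.198), and without any 1 of the pH 7.4 6 h libraries (-0.41 to -0.35, adjusted p 0.0522 to 0.107).

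SLC16A5 (MCT6; ENSG00000170190, chromosome 17), which is known to carry drugs such as bumetanide, and SLC16A4 (MCT5; ENSG00000168679, chromosome 1), whose substrate is not settled, passed no test of pH. SLC16A5 averaged 38.8 ± 2.49 CPM at pH 6.0 and 42.0 ± 1.76 CPM at pH 7.4 at 6 h, and 38.8 ± 1.097 CPM at pH 6.0 and 36.4 ± 2.26 CPM at pH 7.4 at 3 h. Its log2 fold change was -0.11 ± 0.09 at 6 h (adjusted p = 0.304) and 0.10 ± 0.09 at 3 h (adjusted p = 0.474), with overlapping libraries. Over time its values at pH 7.4 were separate without passing the test (0.21 ± 0.09, adjusted p = 0.0704). They passed with a correction for gene length (0.35, adjusted p = 0.00308) and without pH 7.4 3 h library 2 (0.26, adjusted p = 0.0380). With that length correction the pH effects on SLC16A5 also differed between times (-0.34, adjusted p = 0.0411).

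SLC16A4 averaged 8.29 ± 0.185 CPM at pH 6.0 and 8.37 ± 1.84 CPM at pH 7.4 at 6 h, and 7.46 ± 2.01 CPM at pH 6.0 and 6.59 ± 0.108 CPM at pH 7.4 at 3 h. Its libraries overlapped in every comparison. The log2 fold change was -0.01 ± 0.18 at 6 h (adjusted p = 0.969) and 0.17 ± 0.18 at 3 h (adjusted p = 0.559). Over time at pH 7.4 SLC16A4 had 0.34 ± 0.18 (adjusted p = 0.151), and 0.50 without pH 7.4 6 h library 2 (adjusted p = 0.0406).

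Counted over time, more members were lower than higher at 6 h. At pH 7.4, 5 of the 8 fell (SLC16A3, SLC16A9, SLC16A13, SLC16A14 and BSG), where 14.4% of all genes were called lower, and SLC16A1 alone rose, where 17.2% were called higher. At pH 6.0, 4 fell (SLC16A1, SLC16A9, SLC16A13 and SLC16A14), against 10.9% of all genes, and 0 rose, against 8.64%. In either direction 31.6% of all genes were called at pH 7.4 and 19.5% at pH 6.0, the second of which (3050 genes) came to 1915 without pH 6.0 3 h library 3. The median log2 change of the 8 was -0.33 at pH 7.4 and -0.26 at pH 6.0, beside a median over all genes of -0.0164 and -0.0186. In the difference between the pH effects at 6 h and at 3 h, SLC16A3 and BSG were called higher and SLC16A1 lower, beside 13.1% and 16.3% of all genes and 29.4% in either direction. Libraries did not overlap for 2 members higher and 5 lower at pH 7.4, where 22.7% and 20.7% of all genes were so separated (43.4% in either direction). At pH 6.0 they did not overlap for 0 higher and 4 lower, against 16% and 19.6% of all genes (35.6% in either direction). Each pair of pH and time comparisons shares a group of libraries, so these counts are not independent.

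**Figure D4:**
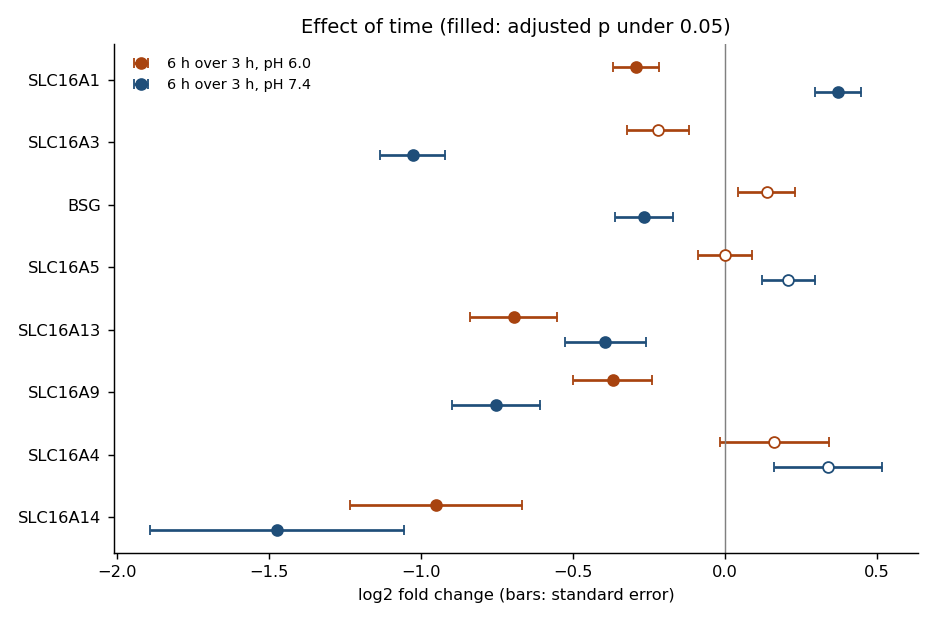
Log2 fold change of 6 h over 3 h at pH 6.0 (orange, upper of each pair) and at pH 7.4 (blue) for the 8 tested genes, with the standard error as bars; filled points have an adjusted p under 0.05. SLC16A1 lies on opposite sides of 0 (-0.29 at pH 6.0 and 0.37 at pH 7.4), and SLC16A3 moves by -1.03 at pH 7.4.

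The remaining SLC16 genes were scarce. SLC16A10, an aromatic amino acid transporter, had at most 6 counts in a library and SLC16A12, a creatine transporter, at most 1, and neither was tested. SLC16A8, the lactate exporter of the retinal pigment epithelium, and SLC16A11 were tested at group means of at most 2.60 CPM. Neither was called for pH at 6 h, although both SLC16A8 (-0.80 ± 0.33, adjusted p = 0.0541) and SLC16A11 (-0.79 ± 0.37, adjusted p = 0.0848) had every pH 6.0 library below every pH 7.4 library. At 3 h SLC16A8 had -0.40 ± 0.29 (adjusted p = 0.354) and SLC16A11 had 0.46 ± 0.35 (adjusted p = 0.384). SLC16A8 fell with time at pH 6.0, by 0.97 ± 0.33 (adjusted p = 0.0437), at 0.964 ± 0.466 CPM at 6 h and 1.97 ± 0.479 CPM at 3 h with overlapping libraries.

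Among 27 other genes of lactate, pyruvate and ketone handling, 24 were tested, and most rose at pH 6.0 at 6 h. There 17 were higher and 2 lower, with a median log2 fold change of 0.42, beside the 21.9% and 25.1% of all genes given above. At 3 h 4 were higher and 1 lower, with a median of 0.07, beside 9.53% and 9.26% of all genes. The difference between the pH effects was called higher for 13 and lower for 1, beside 13.1% and 16.3% of all genes. Over time 2 were higher and 10 lower at pH 7.4, beside 17.2% and 14.4% of all genes, and 5 were higher and 1 lower at pH 6.0, beside 8.64% and 10.9%.

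At 6 h 3 of the 4 lactate dehydrogenase genes were higher at pH 6.0 than at pH 7.4. None of the 4 was called at 3 h. LDHA, the lactate dehydrogenase subunit that favours lactate, averaged 3784 ± 181 CPM at pH 6.0 and 1847 ± 132 CPM at pH 7.4 at 6 h, and 3216 ± 139 CPM at pH 6.0 and 2753 ± 180.4 CPM at pH 7.4 at 3 h (SD, n = 3 each). It rose at 6 h by 1.03 ± 0.09 on the log2 scale (adjusted p = 2.62e-09) and was not called at 3 h (0.22 ± 0.09, adjusted p = 0.0726). LDHB, the subunit of oxidative tissues, rose by 0.85 ± 0.10 (adjusted p = 3.73e-07), with 545 ± 36.0 CPM at pH 6.0 and 303 ± 33.2 CPM at pH 7.4 at 6 h. LDHD, the D-lactate dehydrogenase of mitochondria, rose by 0.68 ± 0.13 at 6 h (adjusted p = 0.000266). The testis form LDHC, named after its values were seen, was not called at 6 h (0.51 ± 0.27, adjusted p = 0.120, libraries overlapping). The 3 h values were 0.08 ± 0.10 for LDHB (adjusted p = 0.592), -0.12 ± 0.13 for LDHD (adjusted p = 0.551) and 0.23 ± 0.25 for LDHC (adjusted p = 0.561). PDK1, a kinase that shuts off pyruvate dehydrogenase, was higher at pH 6.0 by 1.15 ± 0.11 at 6 h (adjusted p = 1.74e-08). Its 3 h difference was 0.60 ± 0.11 (adjusted p = 0.000458). Over time at pH 7.4, LDHA (log2 -0.58), LDHB (-0.37), LDHD (-0.86) and PDK1 (-0.61) were called lower. At pH 6.0 only LDHB of these was called, higher by 0.40, beside 0.23 for LDHA, -0.07 for LDHD and -0.05 for PDK1. The mitochondrial pyruvate carrier subunits MPC1 (0.66 ± 0.16, adjusted p = 0.00188) and MPC2 (0.41 ± 0.10, adjusted p = 0.00189) rose at 6 h and were not called at 3 h (-0.12 ± 0.15 and -0.23 ± 0.10).

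ACAT1, a mitochondrial thiolase of ketone body and isoleucine metabolism, averaged 45.5 ± 4.97 CPM at pH 6.0 and 26.9 ± 1.80 CPM at pH 7.4 at 6 h and rose by 0.75 ± 0.11 on the log2 scale (adjusted p = 1.24e-05). Neuroplastin (NPTN), a relative of basigin that also serves as a transporter partner, rose by 0.42 ± 0.08 at 6 h (adjusted p = 0.000197), with 115.5 ± 1.115 CPM at pH 6.0 and 86.5 ± 4.601 CPM at pH 7.4, and at 3 h its value was 0.02 ± 0.08 (adjusted p = 0.875). Embigin (EMB), the partner of SLC16A7, had at most 2 counts in a library and was not tested, and the sodium-coupled monocarboxylate transporter SLC5A8 had at most 6. The genes lower at pH 6.0 at 6 h were PDK2 (-0.35 ± 0.12, adjusted p = 0.0159) and PDP1 (-0.26 ± 0.09, adjusted p = 0.0151), a kinase and a phosphatase of pyruvate dehydrogenase, named after their values were seen.

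**Figure D5:**
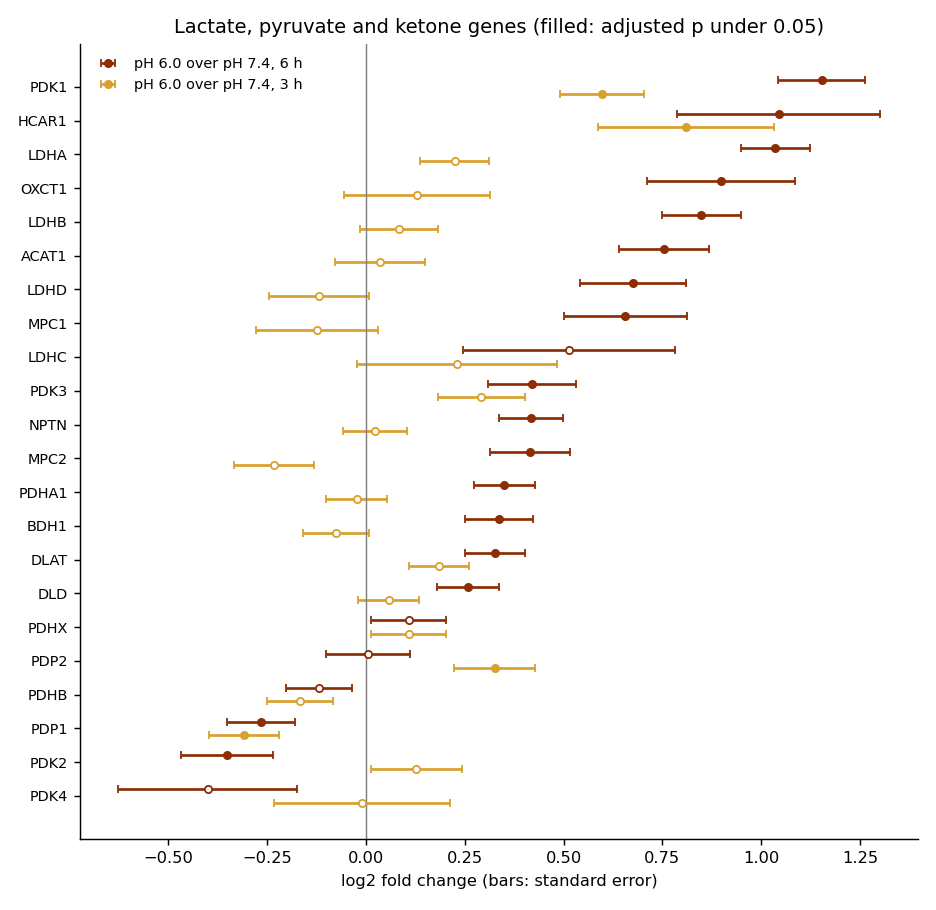
Log2 fold change of pH 6.0 over pH 7.4 at 6 h (dark, upper of each pair) and 3 h (light) for 22 of the 24 tested genes of lactate, pyruvate and ketone handling, ordered by the 6 h value, with the standard error as bars; filled points have an adjusted p under 0.05. At 6 h 15 filled points lie right of 0 and 2 left of it, and at 3 h 3 lie right and 1 left.

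Across the 12 libraries, SLC16A3 and SLC16A9 varied most alike of the 28 pairs among the 8 tested genes, with a Pearson r of log2 CPM of 0.969. SLC16A9 and SLC16A14 had an r of 0.881 and SLC16A3 and SLC16A14 one of 0.868, while SLC16A1 had -0.697 with SLC16A3 and -0.800 with BSG. These values describe 4 groups of 3 libraries that share scaling and conditions. Outside the family, among 9172 genes with a symbol and a mean of at least 10 CPM, EPSTI1 (r = 0.976), TCTN3 (0.976) and LRRC20 (0.975) were most like SLC16A3. The genes most like SLC16A1 were ARRB1 (0.947), MED23 (0.946) and STK4 (0.942). The genes most like BSG were EEF1B2 (0.963) and RPS24 (0.956). No such genes are given for SLC16A6, which was not tested.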

How the data were processed

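Total RNA of T84 cells was sequenced by the authors, and the deposited tables hold a read count and an RPKM value per gene and library for 48162 Ensembl identifiers. The submitters' processing notes name STAR, CASAVA and the build hg19. Which versions, annotation, counter and strand setting were used is not given in the sources used here. No column of per-sample values was left unused (0). Gene lengths came from the deposited RPKM, which one length per gene reproduced within 1e-06 in 100% of values. RPKM served to compare levels between genes, and ratios, shares and sums of RPKM were also compared between groups. The counts served all gene tests. RPKM are scaled by total counts alone, so the sums of RPKM are not on the scaling of the gene tests. Symbols (45342 identifiers) came from the names tables and GENCODE 29, and promoters from RefSeq GRCh38.p14. That build differs from the authors' and gave sequence, names, chromosomes and exon overlap only.

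edgeR 4.0.16 in R 4.3.3 fitted all 12 libraries in 4 groups (8 residual degrees of freedom) with TMM factors, its default low-count filter (15630 genes) and robust quasi-likelihood tests, with Benjamini-Hochberg adjustment over all genes tested and a threshold of 0.05. SE is the log2 fold change divided by the square root of F. CPM use TMM-scaled totals. The biological coefficient of variation was 9.29%. Replicates differed beyond counting noise (chi-square of 5.40 to 19.5 for each degree of freedom), so none was counted as a second copy. Ratios, shares and sums of RPKM were compared by exact permutation. The procedure was tested on simulated data.

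The members, lists and motifs were chosen with earlier results of these data known. All 10 members and the other SLC16 genes were to be reported whatever their result. From the lactate list the rule names the 8 smallest p at 6 h and a few fixed genes, along with the 3 genes most like each of SLC16A1, SLC16A3 and BSG. A few genes that these rules name are not reported here. Alternatives were DESeq2 1.42.0, total counts alone or median-of-ratios factors as scaling, a stricter filter (5 CPM in 3 libraries) or none, only the groups compared, a gene length correction (splines with 5 degrees of freedom), the replicate number as a block, and each library left out. Same-numbered libraries did not deviate together throughout, so the samples were treated as unpaired.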

Additional observations from a re-analysis of the deposited data

Results flagged for a closer look

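For 3 of the 8 tested genes the effect of pH differed between 6 h and 3 h by an interaction term in the edgeR fit. For SLC16A3 the log2 effect of pH 6.0 over pH 7.4 was larger at 6 h by 0.81 ± 0.15 (SE, adjusted p = 0.000415). For SLC16A1 the effect at 6 h minus that at 3 h was -0.66 ± 0.11 (adjusted p = 0.000125). Every pH 6.0 library was below the pH 7.4 libraries at 6 h and narrowly above them at 3 h. The 3 h difference itself was not called (log2 0.13 ± 0.08, adjusted p = 0.230). For BSG the effect at 6 h minus that at 3 h was 0.40 ± 0.13 (adjusted p = 0.0269). That call did not hold without some single libraries or with a length correction.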

How the results depend on the processing

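Over 20 alternatives (19 for the difference between pH effects), no called member changed direction. The calls of SLC16A3, SLC16A9 and SLC16A14 at both times and of SLC16A1 and SLC16A13 at 6 h held in all of them. With a correction for gene length the members called higher over time at pH 7.4 numbered 2 (1 without it) and lower 3 (5), and those called higher in the difference between pH effects numbered 1 (2) and lower 2 (1). The cause was not tested. With single libraries left out, members called lower over time numbered 1 to 3 at pH 6.0 and 3 to 5 at pH 7.4, and higher 1 to 2 at pH 7.4. Members higher at pH 6.0 at 6 h numbered 3 to 4, and higher in the difference between pH effects 1 to 2. All genes called numbered 1648 to 3617 for pH at 3 h, 6203 to 7566 for pH at 6 h, 1915 to 3408 over time at pH 6.0, 3309 to 5211 over time at pH 7.4 and 3457 to 5136 in the difference between pH effects. The split of higher and lower genes shifted with scaling. For pH at 3 h it was 1489 and 1448, and with total counts alone 1194 and 1752. Over time at pH 6.0 it was 1351 and 1699, with total counts alone 773 and 2499, and with the length correction 2234 and 1411. Over time at pH 7.4 it was 2695 and 2247, and with total counts alone 2093 and 3179. In the difference between pH effects it was 2048 and 2541, and with the length correction 2058 and 1488. Total counts alone moved the median log2 change of all genes over time at pH 6.0 to -0.10. With the replicate number as a block, 3231 genes were called for pH at 3 h, 7457 for pH at 6 h, 3289 over time at pH 6.0, 5115 over time at pH 7.4 and 4774 in the difference, and the counts of members did not move. Correlations of same-numbered libraries were -0.0538 to 0.226. Low counts limit SLC16A14, SLC16A6 and SLC16A7.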
